A study of Homo sapiens with 7 samples.

Results

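The small leucine-rich proteoglycans are secreted proteins of the connective tissue matrix, and 9 of their genes were followed here across 7 arrays of human dermal fibroblasts: OMD (osteomodulin), OGN (osteoglycin), DCN (decorin), LUM (lumican), BGN (biglycan), ASPN (asporin), FMOD (fibromodulin), PRELP (prolargin) and PODN (podocan). These 9 genes were among 12726 tested. They were chosen by name, after earlier results of these arrays were known, among them the low signal of OMD in cells that express progerin or prelamin A. The 24 probe sets that the platform annotation gives to these genes alone were taken, and the one with the highest mean over the 7 arrays was selected to stand for its gene. Because of how they were chosen, the values of the members are a description, and OMD enters the counts of calls but is given no p.

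A core of leucine-rich repeats, shaped like a bent solenoid, is common to the family, and several members bind collagen fibrils through it and limit or space the growth of the fibrils. Decorin, biglycan and asporin form one class, in which decorin and biglycan carry chondroitin or dermatan sulphate chains and asporin carries none. Fibromodulin, lumican, prolargin and osteomodulin form another class, of which fibromodulin, lumican and osteomodulin can carry keratan sulphate. Osteoglycin and podocan belong to further classes. In skin, dermal fibroblasts make decorin and lumican in large amounts, and mice without decorin or lumican have irregular collagen fibrils and fragile skin.

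The study asked which genes change when normal fibroblasts express progerin, the truncated and permanently farnesylated lamin A of progeria, or raised amounts of prelamin A, the farnesylated precursor of lamin A. It then asked which of those changes are moved back by FTI, an inhibitor of the enzyme that attaches the farnesyl lipid, or by ZMPSTE24, the protease that cuts the farnesylated end from prelamin A. RNA was taken at passage 10. All arrays carry the label of the same dermal fibroblast line from a healthy individual, whereas the methods describe transduction of 2 such lines, and whether all arrays came from 1 was not tested. The groups were control (2 arrays, for which the labels name no vector or agent), progerin, progerin with FTI, prelamin A, prelamin A with FTI, and prelamin A with ZMPSTE24, with 1 array each. FTI was L-744832 at 10 nM for 48 h. The methods describe lentiviral vectors with a CMV promoter, so that progerin and prelamin A came on top of the cells' own lamin A. One array is titled as FTI alone, but was taken as prelamin A with FTI from its other labels. The 5 arrays of cells with progerin or prelamin A, treated or not, are called the lamin-expressing arrays. Since no vector is named for the controls, effects of transduction and of the lamins cannot be told apart in any comparison with control.

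The values are MAS 5.0 signals, a linear intensity per probe set, scaled alike on every array (median signal 64.9 to 77.0). All 10 fibroblast markers were measured, with a summed signal of 259500 to 266900 on the control arrays and 208100 to 235100 on the lamin-expressing arrays. The keratinocyte list summed to 10830 and 7618 on the controls and to 5080 to 6614 on the others, nearly all of it KRT10, while the defining keratins KRT5 and KRT14 reached at most 8.98 and 12.3. The melanocyte list summed to 290.3 and 252.6 against 237 to 468.3, and the leukocyte gene PTPRC reached at most 55.5. A list of 6 genes was taken as markers of embryonic kidney cells, the usual producers of lentivirus, though all but PAX2 are known as neuronal genes. It summed to 430.1 and 1786 on the controls and to between 17180 and 30650 on the lamin-expressing arrays. The endothelial and immune lists also summed higher on all 5 lamin-expressing arrays (377.5 to 517.1 against 198.3 and 317.2, and 590.7 to 874.3 against 408.1 and 562.9). Single genes carried much of these sums. STMN2 made most of the sum of the 6 genes (280 and 1668 on the controls, 16450 to 29840 on the others). INA, NEFL, NEFM and the dim NEFH were also higher, and PAX2 lay on both sides of the controls. TEK carried the endothelial difference, with PECAM1 overlapping the controls, and CD14 the immune one, with CD3E and CD79A not higher. These sums moved with the same arrays as the changes of the members, and their part in those changes was not tested. The actin 3' to 5' signal ratio, a sign of RNA integrity, was 1.62 with prelamin A, 1.5 with prelamin A and ZMPSTE24, and 1.06 to 1.26 elsewhere. The control arrays differed by more than 2-fold in 9.28% of all genes.

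Signal lay on the same side of both controls on all 5 lamin-expressing arrays for 7 of the 9 genes. OMD, OGN, BGN and ASPN were below both controls on every one of them, and FMOD, PRELP and PODN were above both. DCN and LUM were neither. OMD and OGN reached a signal of 100, the minimum for a gene to be tested, on control arrays only. Their place below the controls thus follows in part from that filter. Over all genes, 12.3% were below both controls on all 5 arrays and 11.9% above both.

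**Figure D1:**
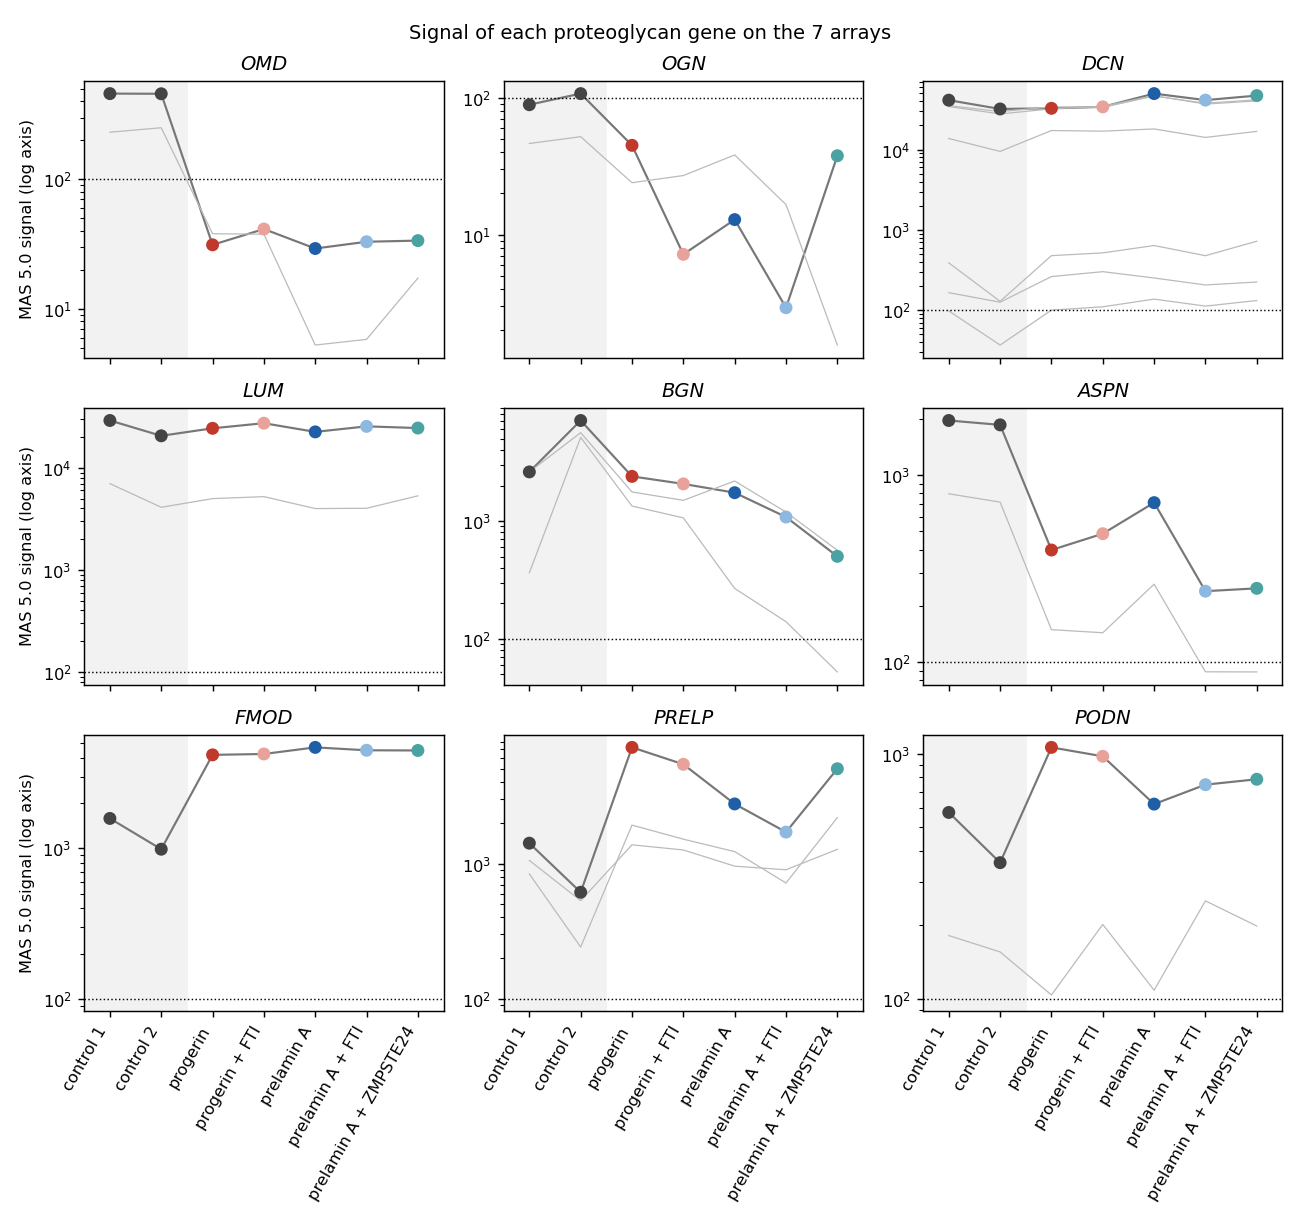
Signal of each of the 9 genes (log axis, MAS 5.0 signal) on the 2 control arrays and the 5 lamin-expressing arrays. The points, 1 per array, show the probe set that stands for the gene, and each line joins the values of a probe set, for all probe sets of the gene. In the points, DCN and LUM read 20611 or more throughout, OMD drops from 459 and 458 to between 29.2 and 41.3, and FMOD and PRELP lie above both controls on all 5 arrays.

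In the RefSeq gene order of GRCh38.p14, the members lie in groups. OGN, OMD and ASPN are direct neighbours on chromosome 9, within the span of CENPP and followed by the related gene ECM2. FMOD and PRELP are neighbours on chromosome 1, followed by the related gene OPTC, and LUM and DCN are neighbours on chromosome 12, next to the related genes KERA and EPYC. PODN stands alone on chromosome 1, and BGN on the X chromosome. In the probe set that stands for each gene, all 3 on chromosome 9 were below the controls and both of the pair on chromosome 1 above. The pair on chromosome 12 was to neither side. Other probe sets differed: only 1 of the 3 for PRELP was above both controls, as were 4 of the 7 for DCN. OMD and OGN passed the signal minimum on controls alone, and the low OMD signal was known beforehand. The side of the chromosome 9 group was thus in part fixed in advance.

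Adjacent members on chromosomes 9 and 1 lay on the same side of the controls in the probe set that stands for each gene. The start regions of 4 of them are therefore shown, each 250 bases before to 50 bases after the annotated start (RefSeq, GRCh38.p14, written along the gene's own strand). Of the 9 members, 6 had such a sequence in the RefSeq table used (OGN, BGN, ASPN, FMOD, PRELP and PODN). Capitals mark matches on either strand to any of 6 motifs: the TATA box core TATAAA, the GC box GGGCGG, the AP-1 site TGANTCA, the CCAAT box CCAAT, the E box CANNTG and the SMAD palindrome GTCTAGAC. No matches overlapped within these 4 sequences. The first pair comes from the neighbours of chromosome 9 that were below the controls, ASPN at chr9:92482457-92482756 and OGN at chr9:92404529-92404828, both on the minus strand. The second pair comes from the neighbours of chromosome 1 that were above them, FMOD at chr1:203351073-203351372 on the minus strand and PRELP at chr1:203475556-203475855 on the plus strand.
ASPN: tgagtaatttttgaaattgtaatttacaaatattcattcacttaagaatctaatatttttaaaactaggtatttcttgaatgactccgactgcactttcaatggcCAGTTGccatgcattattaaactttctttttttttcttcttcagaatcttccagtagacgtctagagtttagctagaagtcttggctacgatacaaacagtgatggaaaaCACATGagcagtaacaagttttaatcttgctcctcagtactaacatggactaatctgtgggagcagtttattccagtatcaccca
OGN: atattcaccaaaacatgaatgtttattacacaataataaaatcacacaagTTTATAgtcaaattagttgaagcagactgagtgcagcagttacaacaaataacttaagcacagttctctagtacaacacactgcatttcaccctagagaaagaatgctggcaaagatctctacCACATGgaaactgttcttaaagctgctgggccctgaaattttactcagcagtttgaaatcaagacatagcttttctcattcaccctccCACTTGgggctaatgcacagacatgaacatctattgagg
FMOD: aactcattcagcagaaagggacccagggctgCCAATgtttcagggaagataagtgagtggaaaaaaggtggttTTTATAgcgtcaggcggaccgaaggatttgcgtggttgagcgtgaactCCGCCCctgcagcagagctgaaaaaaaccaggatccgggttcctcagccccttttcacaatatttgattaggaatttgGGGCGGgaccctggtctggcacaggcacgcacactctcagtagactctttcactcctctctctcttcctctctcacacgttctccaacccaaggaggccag
PRELP: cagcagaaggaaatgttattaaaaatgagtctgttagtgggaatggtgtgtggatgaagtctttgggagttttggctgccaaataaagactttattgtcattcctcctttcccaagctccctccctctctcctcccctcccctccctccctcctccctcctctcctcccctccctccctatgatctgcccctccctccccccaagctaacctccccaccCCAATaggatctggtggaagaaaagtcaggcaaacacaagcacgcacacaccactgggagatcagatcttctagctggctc

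The ASPN and OGN sequences were poor in G and C, at 34% and 38%, while FMOD and PRELP held 52.3% and 52.7%, against a median of 58.3% over 27305 promoters. BGN and PODN were the richest, at 71.7% each. ASPN and OGN shared E box matches (at -145 and -35 from the start in ASPN, and at -77 and 12 in OGN), a motif that 68.9% of all promoters hold. FMOD and PRELP shared a CCAAT match (at -219 and at -31), which 35.7% hold. TATAAA, found in 12% of promoters, was matched in OGN at -200 and in FMOD at -177. GGGCGG, found in 44.6%, was matched at -129 and -51 in FMOD, at 5 places in BGN and at 2 in PODN. The AP-1 site (7.76% of promoters) and the SMAD palindrome (0.201%) had no match in any of the 6 sequences.

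Osteomodulin, which is best known from bone, where it binds collagen and osteoblasts, had the largest difference of the 9 genes. OMD read 459 and 458 on the controls, 31.2 with progerin, 41.3 with progerin and FTI, 29.2 with prelamin A, 33.0 with prelamin A and FTI, and 33.6 with prelamin A and ZMPSTE24. Both controls were alike and high, and the 5 lamin-expressing arrays were low and close together, at 6.37% to 9.01% of the control mean. On the log2(signal + 16) scale, the mean of the 5 arrays was lower by 3.26 (log2 change -3.26, SE 0.15), a 9.59-fold difference. With a pseudocount of 1 or 64 in place of 16, the log2 change was -3.74 or -2.42. Its second probe set gave 231 and 250 on the controls and 5.25 to 38.01 on the other arrays, again with no overlap. All 5 lamin-expressing values of both probe sets were below the signal of 100 that served as the minimum for a gene to be tested, so the size of the fold rests on dim signals.

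Asporin, which binds collagen and the growth factor TGF-beta and lacks a glycosaminoglycan chain, also fell. ASPN read 1966 and 1862 on the controls, 398 with progerin, 487 with progerin and FTI, 714 with prelamin A, 239 with prelamin A and FTI, and 248 with prelamin A and ZMPSTE24. The controls differed by a ratio of only 1.06, the prelamin A array was the highest of the other 5, and the 2 treated prelamin A arrays were the lowest. The 5 arrays differed from the controls by a log2 change of -2.27 (SE 0.41), with an adjusted p of 0.0327 by limma. It was 0.0539 with no signal filter. Without control 1 it was 0.143, without control 2 it was 0.181, and without the progerin, progerin and FTI, prelamin A and FTI or ZMPSTE24 array it was 0.0560 to 0.0696, while the change itself stayed between -2.49 and -2.11 whichever array was left out. The second ASPN probe set read 796 and 718 on the controls and 88.4 to 261 on the others, with prelamin A again the highest of the 5.

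Osteoglycin, a small matrix protein known from bone and from the wall of blood vessels, was dim throughout. OGN read 89.4 and 108 on the controls, 45.1 with progerin, 7.16 with progerin and FTI, 12.9 with prelamin A, 2.91 with prelamin A and FTI, and 37.8 with prelamin A and ZMPSTE24. It passed the minimum of 100 through the second control alone, so its place below the controls follows in part from that filter. The 5 arrays spread over a ratio of 15.5, and the log2 change of -1.78 (SE 0.47) had an adjusted p of 0.109. Its other probe set was below 100 on every array (46.5 and 52.1 on the controls, 1.55 to 38.3 on the others). Just inside the minimum stood OGN at 108 and the dimmest DCN probe set at 138, and just outside it that OGN probe set at 52.1.

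Biglycan, which carries chondroitin or dermatan sulphate and can signal through Toll-like receptors, differed between the controls more than any other member. BGN read 2608 and 7117 on the controls, 2390 with progerin, 2064 with progerin and FTI, 1739 with prelamin A, 1081 with prelamin A and FTI, and 502 with prelamin A and ZMPSTE24. All 5 values were below the lower control, but progerin lay close to it, and the controls were apart by a ratio of 2.73. The log2 change over the 5 arrays was -1.65 (SE 0.64), with an adjusted p of 0.242, and it was -2.37 without control 1 and -0.93 without control 2. A second probe set ran the same way (2606 and 5612 on the controls, 565 to 2184 on the others), while the remaining one read 364 and 5124 on the controls, and the progerin arrays lay between them.

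Fibromodulin, a keratan sulphate proteoglycan that guides collagen cross-linking and fibril assembly, was higher on all lamin-expressing arrays to nearly the same extent. FMOD read 1582 and 988 on the controls, 4188 with progerin, 4244 with progerin and FTI, 4696 with prelamin A, 4492 with prelamin A and FTI, and 4479 with prelamin A and ZMPSTE24. The 5 arrays spanned a ratio of 1.12, less than the 1.60 between the controls, and the groups were far from overlapping. The log2 change was 1.81 (SE 0.19), a 3.50-fold rise with an adjusted p of 0.00493. Leaving out each array in turn kept the adjusted p between 0.00760 and 0.0308. FMOD had a single probe set.

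Prolargin, which links collagen to heparan sulphate of basement membranes, had the largest positive change of the members with progerin. PRELP read 1417 and 614 on the controls, 7244 with progerin, 5431 with progerin and FTI, 2764 with prelamin A, 1711 with prelamin A and FTI, and 5034 with prelamin A and ZMPSTE24. All 5 were above both controls, with prelamin A and FTI nearest to them, and the 5 arrays differed by a ratio of 4.23. Over them the log2 change was 2.06 (SE 0.58), with an adjusted p of 0.125. Of its other 2 probe sets, one read 839 and 242 on the controls and 719 to 2191 on the others, and one read 1057 and 532 against 901 to 1378, so both overlapped with the controls.

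Podocan, a collagen-binding member first known from the kidney, showed a smaller difference. PODN read 575 and 359 on the controls, 1059 with progerin, 974 with progerin and FTI, 622 with prelamin A, 747 with prelamin A and FTI, and 785 with prelamin A and ZMPSTE24. Both progerin arrays were higher than the 3 prelamin A arrays, and prelamin A alone was close to the higher control. The log2 change was 0.83 (SE 0.26), with an adjusted p of 0.158. A dimmer probe set, with 181 and 155 on the controls and 104 to 251 on the others, lay on both sides of them and had a change of -0.04. In it, progerin (104) and prelamin A (108) were below both controls and the treated arrays above both. The higher progerin signals of the brighter probe set were thus not repeated.

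Decorin and lumican, the most abundant members in skin, did not lie to one side of the controls in the probe set that stands for each gene. DCN read 41217 and 32027 on the controls, 32635 with progerin, 34019 with progerin and FTI, 49751 with prelamin A, 41279 with prelamin A and FTI, and 46999 with prelamin A and ZMPSTE24. The progerin arrays lay between the controls, and the prelamin A arrays above both. LUM read 29120 and 20611 on the controls, 24416 with progerin, 27395 with progerin and FTI, 22517 with prelamin A, 25507 with prelamin A and FTI, and 24560 with prelamin A and ZMPSTE24, so every value lay between the controls. The log2 changes over the 5 arrays were 0.15 (SE 0.22, adjusted p 0.770) for DCN and 0.02 (SE 0.18, adjusted p 0.971) for LUM.

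The 7 DCN probe sets did not tell the same story. The 3 brightest, with means of 36141 and more, overlapped with the controls, while the other 4 were above both controls on all 5 arrays, with mean log2 changes of 0.54 to 1.25. The one with the largest change read 389 and 129 on the controls and 478 to 724 on the others, and the brightest of the 4 read 13745 and 9497 against 14169 to 18070. Which of the probe sets follows the decorin transcript best was not tested. The LUM probe sets both overlapped with the controls, and where several were measured for OMD and ASPN they gave the same side on every array.

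**Figure D2:**
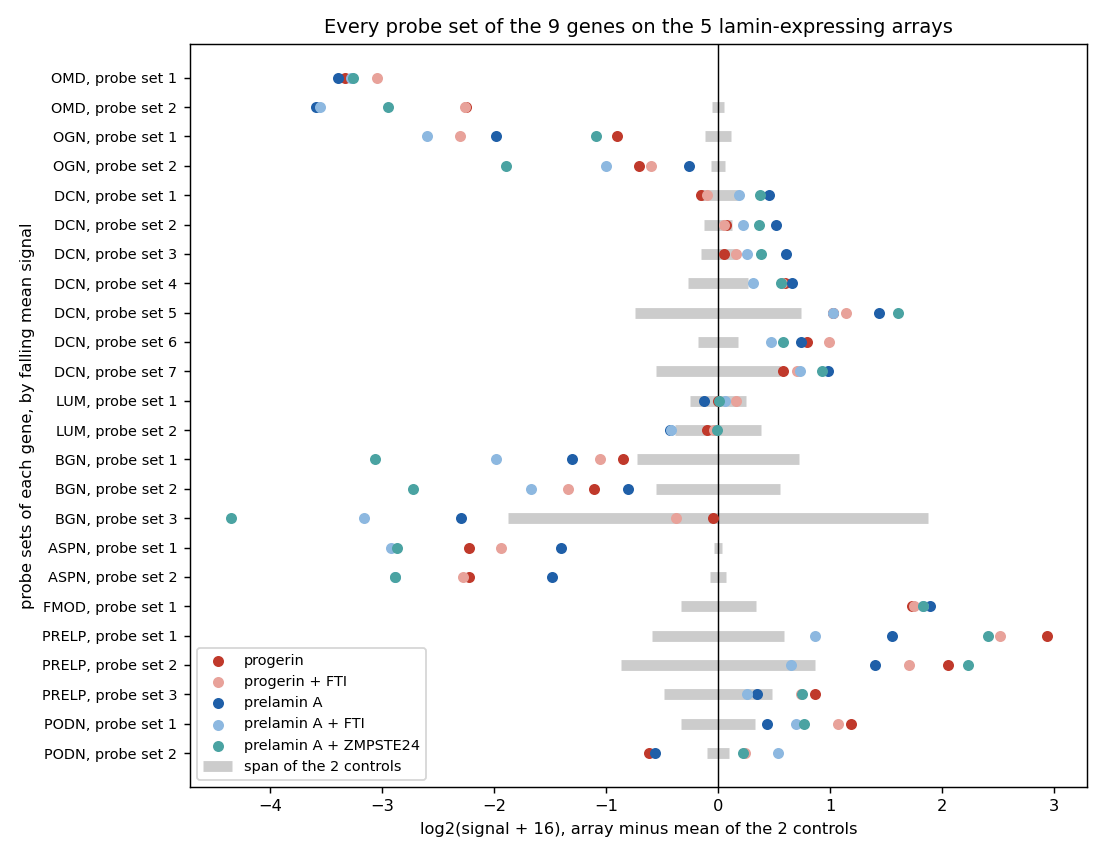
Difference of each lamin-expressing array from the mean of the 2 controls in log2(signal + 16), for all 24 probe sets of the 9 genes, ordered within each gene by falling mean signal, with the span of the controls in grey. All points of OMD and ASPN lie left of the controls, 4 of the 7 DCN probe sets lie right of them, and the dimmest BGN probe set has the widest control span.

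Counted at an adjusted p under 0.05 over all genes, the 5 lamin-expressing arrays gave 1 member higher (FMOD) and 2 lower (OMD and ASPN). Of all genes, 2.02% were higher and 0.849% lower by this rule. OMD passed the signal minimum on the controls alone and its low signal was known when the genes were chosen, so nothing is read from its place in this count, which leaves ASPN as the other lower member. The median log2 change of the 9 members was 0.02, and that of all genes -0.03. The 5 arrays were not replicates of a condition, and differences between their conditions add to the error of this fit. In these bulk samples, fewer cells of a type that makes a proteoglycan and less RNA per cell cannot be told apart.

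**Figure D3:**
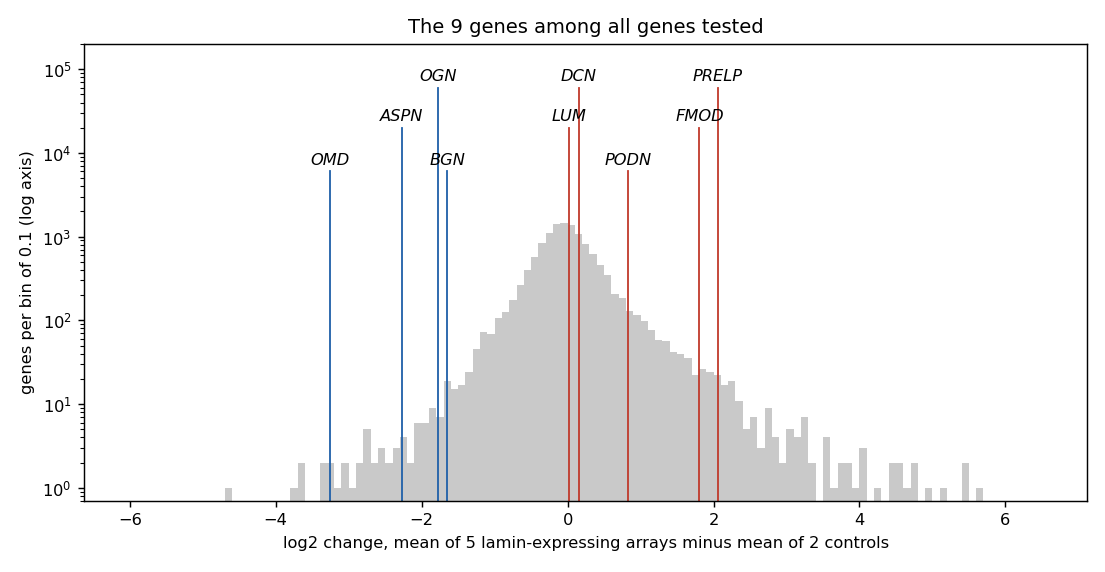
Distribution over all 12726 genes of the log2 change between the 5 lamin-expressing arrays and the 2 controls, with the 9 members marked. OMD at -3.26 and ASPN at -2.27 lie in the lower tail, PRELP at 2.06 and FMOD at 1.81 in the upper tail, and LUM and DCN near the centre.

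Progerin alone was compared with control in a fit of all 6 conditions, in which a gene was called at a fold over 2 and an unadjusted p under 0.05. By this rule 3 members were higher, PRELP by 2.93 (SE 0.58), FMOD by 1.73 (SE 0.42) and PODN by 1.19 (SE 0.42) on the log2 scale. Of all genes 3.76% were called higher. OMD and ASPN were lower, with log2 changes of -3.33 (SE 0.32) and -2.22 (SE 0.32), where 2.04% of all genes were called lower. BGN (-0.85, SE 0.67), OGN (-0.90, SE 0.33), DCN (-0.15, SE 0.35) and LUM (-0.005, SE 0.38) were not called. PODN was not called with median centring, with a pseudocount of 1 or with no filter on dim probe sets. Its fold was under 2 (log2 change 0.86) against the first control alone. The other PODN probe set was lower with progerin, at 104 beside 181 and 155 on the controls. Without control 1, BGN and OGN also passed a fold of 2, at -1.57 and -1.02, but without control 2 they stood at -0.13 and -0.79.

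Prelamin A alone gave 2 members higher, FMOD by 1.90 (SE 0.42) and PRELP by 1.55 (SE 0.58), beside 6.29% of all genes. Lower were OMD (-3.39, SE 0.32), OGN (-1.99, SE 0.33) and ASPN (-1.40, SE 0.32), beside 4.02% of all genes. OGN entered the test only through its second control, and its call was lost at a mean signal of at least 100 and with an intensity trend. BGN (-1.30, SE 0.67), PODN (0.44, SE 0.42), DCN (0.45, SE 0.35) and LUM (-0.12, SE 0.38) were not called. PRELP was at the edge of the rule: its 95% interval was 0.01 to 3.09, its change against the first control alone was 0.96, and quantile normalization or median centring took it out. The median change of the 9 members was -0.16 with progerin and -0.12 with prelamin A, against 0.01 and -0.02 over all genes.

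The 2 comparisons share their controls, and none of the genes tested reached an adjusted p under 0.05 in either by limma (smallest 0.241 for progerin and 0.0968 for prelamin A). The only residual of this fit comes from the 2 control arrays, so each lone array was assumed to vary as they do.

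**Figure D4:**
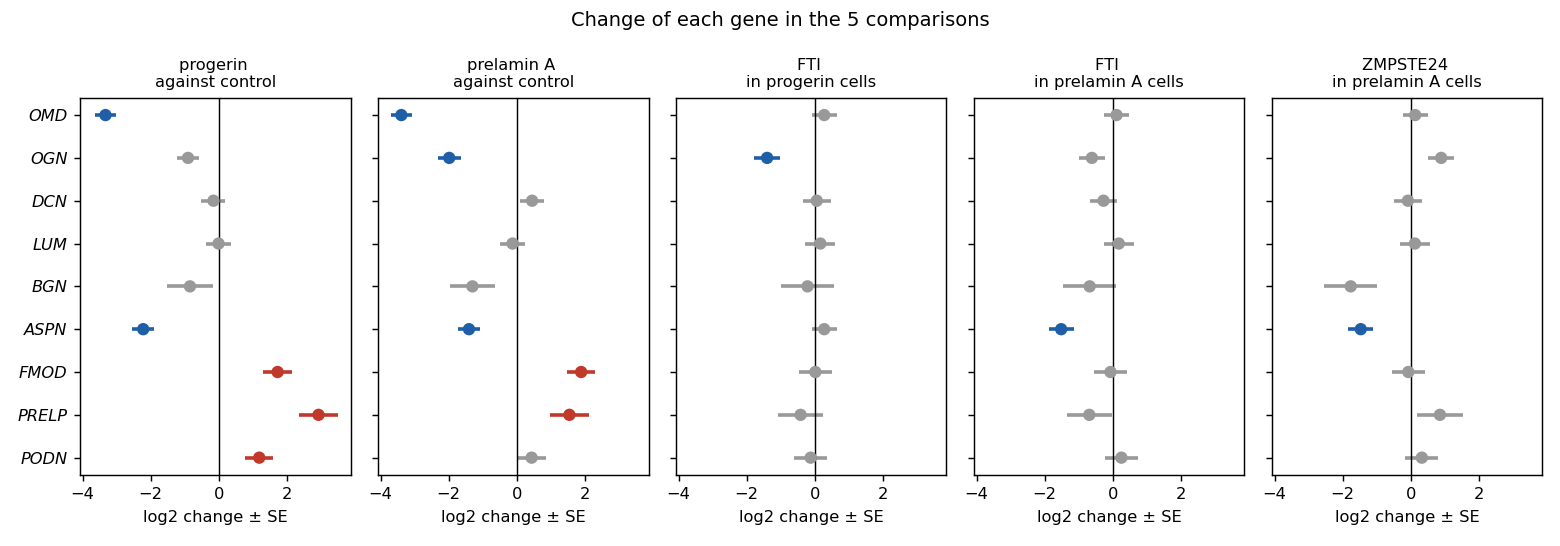
Log2 change plus and minus its SE (limma, 6 conditions) of the 9 members for progerin and prelamin A against control and for each treated array against its untreated line. OMD, ASPN, FMOD and PRELP were called against control with both lamins. Bars of plus and minus the SE miss 0 with both lamins for these and also for OGN, BGN and PODN, so missing 0 is not a call. Most bars of the treatments span 0.

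FTI in progerin cells left 8 of the 9 members without a call. OGN was called lower, from 45.1 to 7.16 (log2 change -1.40, SE 0.39), where 0.951% of all genes were called lower, but both signals were under the minimum of 100, and the call was lost with a pseudocount of 64. The other OGN probe set did not fall, at 24.0 without and 27.1 with FTI. The changes of OMD and ASPN were 0.28 each (95% intervals -0.70 to 1.26 and -0.71 to 1.26). A return of ASPN to the control level, a rise of 2.22, lay outside its interval. OMD would need a rise of 3.33, but it read 31.2 and 41.3, under the minimum of 100, so nothing is read from its interval. FMOD changed by 0.02 (95% interval -1.27 to 1.31), where a return would need a fall of 1.73, and PRELP by -0.42 (95% interval -2.20 to 1.37), where it would need a fall of 2.93. The interval of PODN, -1.40 to 1.16, included a full return of 1.19.

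With FTI in prelamin A cells, ASPN was called lower, from 714 to 239 (log2 change -1.51, SE 0.37), beside 1.62% of all genes, which is away from the control level. OMD changed by 0.11 (95% interval -0.87 to 1.095) and FMOD by -0.06 (95% interval -1.36 to 1.23). PRELP, at 1711 after 2764, was nearer to the controls by 0.69 on the log2 scale, but its 95% interval of -2.47 to 1.09 included no change and a full return. BGN went from 1739 to 1081 (-0.68, SE 0.77) and DCN from 49751 to 41279 (-0.27, SE 0.41), neither of them called. In a fit of FTI over both lines with line as a block, OGN was the single member called, lower by a log2 change of -1.01 (SE 0.26), beside 0.581% of all genes, and ASPN was not called (-0.62, 95% interval -1.79 to 0.55). The OGN signals with and without FTI were all under 100. Its other probe set read 24.0 without and 27.1 with FTI in progerin cells, and 38.3 and 16.6 in prelamin A cells. OMD changed by 0.20 (95% interval -0.27 to 0.67) and FMOD by -0.02 (95% interval -0.75 to 0.71) in that fit.

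ZMPSTE24 in prelamin A cells also gave 1 call, ASPN lower from 714 to 248 (log2 change -1.47, SE 0.37), beside 2.85% of all genes. This comparison and that of FTI in prelamin A cells subtract the same single prelamin A array, the highest of the 5 for ASPN, so the calls are not independent. The largest change of a member was that of BGN, from 1739 to 502 (-1.76, SE 0.77), which was not called here but was called with a pseudocount of 64, with an intensity trend in limma or with every probe set tested. OGN went from 12.9 to 37.8 (0.90, SE 0.39) and PRELP from 2764 to 5034 (0.86, SE 0.67), neither called, and the PRELP value lay further from the controls than prelamin A alone. The other OGN probe set went the opposite way, from 38.3 to 1.55. OMD changed by 0.13 (95% interval -0.85 to 1.11).

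The FTI effect on ASPN differed between the lamins: it was 0.28 with progerin and -1.51 with prelamin A, a difference of -1.79 (SE 0.52). By the same rule of fold and unadjusted p, 0.747% of all genes had a lower FTI effect in prelamin A cells, and no other member had a difference that passed in either direction. The adjusted p of this ASPN difference was 1.00. No gene reached an adjusted p under 0.05 for any of the treatments or for this difference.

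The genes beside the members were read against the shares of all genes called. These were 3.76% higher and 2.04% lower with progerin, and 6.29% and 4.02% with prelamin A. Few calls among so few neighbours are near those shares, so their number does not set the members apart. Beside OGN, OMD and ASPN, 6 neighbours on chromosome 9 were tested and 0 were called in progerin or prelamin A. ECM2, the family member next to ASPN, read 963 and 1042 on the controls and 579 to 1049 on the others, and IARS1, which lies beyond CENPP and NOL8, was below both controls on all 5 arrays with a log2 change of -0.73. Around FMOD, PRELP and PODN on chromosome 1, 8 neighbours were tested and 1 was called, CHI3L1 with prelamin A (1.91). ATP2B4, beyond OPTC, was above both controls on all 5 arrays, by 0.74, while LAX1, the gene after it, was below both by -0.81, and CZIB, near PODN, by -0.27. BICD2, on the far side of ASPN, was above both by 0.28. Of 4 neighbours tested beside LUM and DCN and 3 beside BGN, 0 were called. Among them, EEA1 on chromosome 12 was above both controls on all 5 arrays, by 0.57, and HAUS7 on the X chromosome below both, by -0.62. Over all genes, 11.9% were above and 12.3% below both controls on all 5 arrays.

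**Figure D5:**
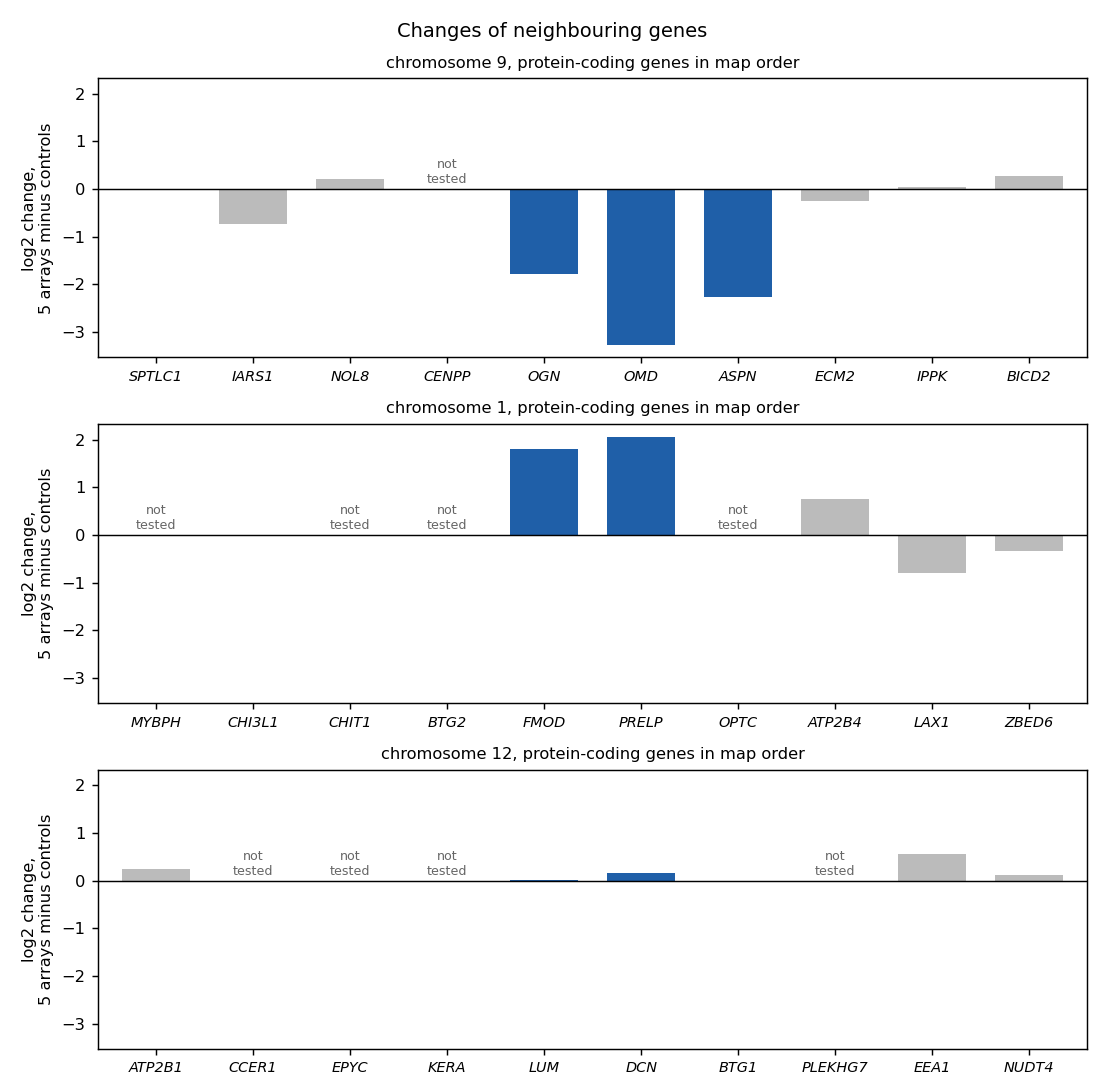
Mean log2 change of the 5 lamin-expressing arrays against the 2 controls for protein-coding genes in map order around the members of chromosomes 9, 1 and 12, members in blue and other genes in grey, with genes that did not pass the signal minimum marked as not tested. OGN, OMD and ASPN form a run below 0, FMOD and PRELP a pair above it, and LUM and DCN stay near 0.

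Of 9 further genes of the family, 4 passed the minimum and 0 were called with progerin or prelamin A. Of all genes, 3.76% were called higher and 2.04% lower with progerin, and 6.29% and 4.02% with prelamin A. So few genes cannot be set apart from these shares. CHADL read 127 and 91.5 on the controls and 64.8 to 128 on the others, TSKU 325 and 501 against 270 to 580, and PODNL1 291 and 417 against 172 to 269. PODNL1 was thus below both controls on all 5 arrays. KERA, OPTC, EPYC, CHAD and NYX stayed below 100 on every array, with highest signals of 36.4, 71.7, 36.7, 11.5 and 51.9.

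The enzymes that build the chondroitin and dermatan sulphate chains of decorin and biglycan were read beside the same shares of all genes (3.76% higher and 2.04% lower with progerin, 6.29% and 4.02% with prelamin A). Of 22 tested, 1 was called higher and 1 lower with progerin, and 1 higher and 3 lower with prelamin A, with medians of -0.16 and -0.05 against 0.01 and -0.02 for all genes. XYLT1, which adds the first sugar of the chain, was lower in both, by log2 changes of -1.53 (SE 0.41) and -1.86 (SE 0.41): it read 2487 and 3822 on the controls and 542 to 1057 on the others. DSEL, related to the epimerase that makes dermatan sulphate, was higher with progerin (1.43, SE 0.40). CHST15, a chondroitin sulphotransferase, was lower with prelamin A (-1.38, SE 0.46), and CHSY3, which extends the chain, was higher (1.36, SE 0.34). Of 7 enzymes of keratan sulphate, carried by fibromodulin and lumican, 1 was called: CHST2, a sulphotransferase, read 279 and 287 on the controls and 506 to 932 on the others, and was higher with progerin (1.66, SE 0.32).

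Among 10 tested proteases that cut these proteoglycans or process matrix, and their enhancers, 0 were called with progerin, and 1 was higher and 3 lower with prelamin A. The shares of all genes were again 3.76% higher and 2.04% lower with progerin, and 6.29% and 4.02% with prelamin A. BMP1, which removes the propeptide of biglycan, was lower (-1.26, SE 0.40), as were its enhancer PCOLCE (-1.07, SE 0.38) and ADAMTS1 (-1.08, SE 0.37). MMP3, which can cut decorin, read 23080 with prelamin A, but 179 and 2773 on the controls (4.97, SE 1.60). Of 13 collagens and fibril partners, 4 were called lower with progerin and the same 4 with prelamin A, among them COL11A1 (-3.44 and -3.31) and the collagen V chains COL5A1, COL5A2 and COL5A3 (-1.02 to -1.15 and -1.33 to -1.67), while 0 were higher. The medians of this list were -0.39 and -0.63, against 0.01 and -0.02 over all genes.

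Of 15 growth factors and receptors that members of the family bind or act through, 0 were called with progerin, beside 3.76% of all genes higher and 2.04% lower. With prelamin A, 3 were higher and 2 lower, beside 6.29% and 4.02% of all genes. TLR2, a receptor of biglycan, read 4.83 and 38.7 on the controls and 144 with prelamin A (2.24, SE 0.65), the one array on which it reached the minimum of 100, so that its call follows in part from that filter. ITGA2, a subunit of a collagen-binding integrin, went from 185 and 510 to 1328 (2.05, SE 0.65). MSTN, a growth factor that decorin binds, read 145 and 116 on the controls and 14.1 with prelamin A (-2.28, SE 0.34). CCN4, which binds decorin and biglycan, read 4814 and 6791 on the controls and 1411 with prelamin A (-2.01, SE 0.38).

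The genes whose log2 signals followed each changed member most closely over the 7 arrays were named by Pearson's r, as a description of 7 points that share their controls and their scaling. For OMD these were HAPLN1, a link protein of cartilage and other matrix (r = 0.994), BCAT1 (r = 0.992) and PRPF38A (r = 0.992). HAPLN1 read 1092 and 1324 on the controls and 20.5 to 49.0 on the others. For ASPN they were RBM22, MAML1 and POLR2G (r = 0.991, 0.988 and 0.988), for OGN BTN3A1, MNS1 and RND2 (r = 0.979, 0.974 and 0.969), and for BGN ELF2, KDELR1 and GCDH (r = 0.994, 0.993 and 0.993). A high r does not give the size of a change: RBM22 read 2429 and 2441 on the controls and 2149 to 2259 on the others. FMOD was followed by KIAA1671, RIPOR2 and B4GALT6 (r = 0.998, 0.993 and 0.992), and PRELP by GID4, CHST10 and ITPR3 (r = 0.986, 0.981 and 0.969). For PODN they were AGFG1, TRAK1 and DSEL (r = 0.992, 0.991 and 0.989), and DSEL read 1973 and 1301 on the controls, 4347 and 4190 on the progerin arrays and 2221 to 3352 on the prelamin A arrays. No member was among the 3 closest genes of another.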

How the data were processed

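The authors deposited 1 table of MAS 5.0 signal intensity values on a linear scale, made by that software from the probe intensities. Of 54675 probe sets, 62 were array controls and 41091 had 1 gene in the platform annotation, of which 41037 were found by gene ID in RefSeq (GRCh38.p14) and took its symbols. Those that reached a signal of 100 on any array were kept, and the brightest on average stood for its gene, which gave 12726 genes. Tests used limma 3.58.1 in R 4.3.3 on log2(signal + 16), where a fold understates the change of dim genes.

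The fit of 6 conditions had 1 residual and 3.50 prior degrees of freedom, and that of the 5 lamin-expressing arrays against the 2 controls had 5 and 2.61. Adjustment was by Benjamini-Hochberg over all genes. The labels do not say whether the 2 controls were separate cultures, while the methods describe transduction of 2 lines, each grown in duplicate. The spread of the controls may thus be technical or may come from cultures or lines, and the number of arrays limits the precision. The S-score test of the paper needs probe-level values and was not repeated.

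The members, gene lists and tests were chosen with earlier results of these data known. Named genes were the members, all measured family genes, up to 4 called genes of largest change per list, and the 3 genes of highest r with each member outside the controls, and map neighbours were named after their values were seen. The alternatives tried were pseudocounts of 1 and 64, quantile normalization, median centring, other signal filters, every or the second probe set, an intensity trend, a p under 0.01, leaving out arrays and, chosen after seeing the data, line as a block for FTI. The fits were tested on simulated data.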

Additional observations from a re-analysis of the deposited data

Results flagged for a closer look

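The log2 effect of FTI on ASPN, asporin, was lower in prelamin A cells than in progerin cells by a difference of -1.79 (SE 0.52) in the interaction contrast of the limma fit, at a fold over 2 and an unadjusted p under 0.05, while its adjusted p was 1.00. ASPN read 398 and 487 without and with FTI in progerin cells, and 714 and 239 in prelamin A cells. Its second probe set read 149 and 143, and 261 and 88.6. Each of these values comes from 1 array.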

How the results depend on the processing

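No log2 change of a called member reversed under the normalizations, pseudocounts and left-out controls tried. With an unadjusted p under 0.01, 3 members were called with progerin in place of 5, and 0 in place of 1 for FTI in progerin cells, for FTI in prelamin A cells and for ZMPSTE24. The 1 call of FTI in progerin cells (OGN) also went to 0 with a pseudocount of 64, a mean signal of at least 100 or an intensity trend. FTI in prelamin A cells gave 2 calls with a pseudocount of 1 or with every probe set, and ZMPSTE24 gave 2 with pseudocounts of 1 and 64, an intensity trend or every probe set. Leaving out a control leaves no residual in the fit of 6 conditions, so only folds over 2 were counted: 4 to 7 members with progerin, 4 to 6 with prelamin A (6 with both controls), 1 and 1 for FTI in progerin and prelamin A cells, and 2 for ZMPSTE24. Leaving out each array in turn, 7 to 9 members were outside the controls and 2 to 3 had an adjusted p under 0.05. Under the normalizations, pseudocounts and left-out controls, 180 log2 changes of single members moved by less than 1 SD of that gene's 2 controls and 36 by more. For OMD, whose controls were nearly equal, even a shift from -3.33 to -3.295 (progerin, quantile normalization) counted as more. No paired analysis by replicate number was possible because each group other than control has 1 array. FTI was given in both lines, so a fit with line as a block (2 residual degrees of freedom, chosen after seeing the data) was run: it called 1 member, OGN, with no adjusted p of a gene under 0.05. Signals under 100, as for OGN and for OMD on the lamin-expressing arrays, limit the size of their folds.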
